A study of Mus musculus with 4 samples.

Results

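Cathepsins are proteases that work mainly in the acidic interior of lysosomes, and 8 of their genes, Ctsa, Ctsb, Ctsc, Ctsd, Ctsh, Ctsl, Ctss and Ctsz, were followed in mouse liver across adult life. The genes were chosen by name, and each probe set annotated to 1 of these symbols alone was taken. This gave 19 of the 45101 probe sets on the array and 8 of the 18193 genes with a probe set of their own. The 4 groups were male mice of the inbred strain C57BL/6J aged 4, 8, 13 and 21 months, all with free access to a low-fat diet. Each group is represented by a single pool of liver RNA from 6 animals on a single array, so each age is 1 measurement and the spread between mice is unknown. No test between ages was possible and no p-value is given. The differences below are sizes measured between pools, and with 4 arrays their precision is limited.

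Cathepsins are made as inactive precursors, tagged with mannose 6-phosphate, carried to the lysosome and activated there by the low pH and by other proteases. Ctsb, Ctsc, Ctsh, Ctsl, Ctss and Ctsz encode cysteine proteases, Ctsd an aspartic protease and Ctsa a serine carboxypeptidase. Hepatocytes use the widely expressed cathepsins for protein turnover and autophagy. Ctss is expressed mostly in macrophages, B cells and dendritic cells, where it cleaves the invariant chain that blocks the peptide groove of class II molecules. Ctsc, also called dipeptidyl peptidase I, activates the granule serine proteases of neutrophils, mast cells and cytotoxic lymphocytes.

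All 8 cathepsins had higher values at 21 than at 4 months, as had 51.4% of all genes, but by unequal amounts. Ctss was 1.99-fold and Ctsc 1.57-fold higher, and the other 6 were between 1.07-fold and 1.20-fold higher. In whole liver, more cells of a type and more RNA per cell cannot be told apart. Ctss and Ctsc were also the lowest at 8 months relative to 4 months. Values are on the log2 scale of the deposited table, where a difference of 1 is 2-fold. A gene with several probe sets is represented by the brightest, and 11582 genes with a mean of at least 3.74, the median over probe sets, served as the background. All 8 cathepsins passed this filter. At least 1.5-fold, a log2 difference of 0.58, was taken as the size worth counting. At 21 vs 4 months 2 of 8 cathepsins passed it as higher, against 2.1% of all genes, and 0 of 8 as lower, against 0.423%.

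Promoters are shown so that the start regions of the pair with large differences, Ctss and Ctsc, can be read beside those of genes with small ones. The RefSeq table for GRCm38.p6 gave promoters for 6 of the 8 genes, as windows of 300 bases with 250 before the annotated start and 50 from the start on. Of Ctsa 2 windows are listed. The first motif searched was CACGTG, the palindromic core of the element bound by TFEB, TFE3 and MITF, the factors that drive lysosomal genes. It occurs in 7.15% of 32851 promoters in the table and in 8.09% of its genes. The second was GAGGAA on either strand, a core bound by PU.1, the myeloid factor encoded by Spi1, which occurs in 28.3% of promoters and 31.3% of genes and was chosen after the values were seen. No window held both motifs. Capitals mark them, each window runs 5′ to 3′ on the gene's strand, and a match is a match of letters only. The pair with the large differences is given first.
Ctss, chr3:95526536-95526835, plus strand: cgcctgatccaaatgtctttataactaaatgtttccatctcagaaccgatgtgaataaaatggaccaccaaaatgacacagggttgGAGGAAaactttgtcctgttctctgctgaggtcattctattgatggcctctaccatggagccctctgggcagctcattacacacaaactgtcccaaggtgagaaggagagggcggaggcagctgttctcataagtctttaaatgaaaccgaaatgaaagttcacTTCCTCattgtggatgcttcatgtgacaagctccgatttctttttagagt
Ctsc, chr7:88277835-88278134, plus strand: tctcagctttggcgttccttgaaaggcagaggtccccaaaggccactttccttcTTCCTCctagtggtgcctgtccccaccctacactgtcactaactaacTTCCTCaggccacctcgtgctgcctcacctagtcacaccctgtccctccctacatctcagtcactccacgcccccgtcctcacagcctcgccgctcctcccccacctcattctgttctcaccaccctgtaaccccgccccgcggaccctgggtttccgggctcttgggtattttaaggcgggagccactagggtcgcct
Ctsd, chr7:142387778-142388077, minus strand: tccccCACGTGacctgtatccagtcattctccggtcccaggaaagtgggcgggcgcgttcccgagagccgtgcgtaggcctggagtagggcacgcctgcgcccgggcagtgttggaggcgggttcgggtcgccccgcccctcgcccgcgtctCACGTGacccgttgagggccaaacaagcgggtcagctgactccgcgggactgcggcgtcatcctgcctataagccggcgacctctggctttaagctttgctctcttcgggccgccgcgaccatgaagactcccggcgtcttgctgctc
Ctsa, chr2:164833523-164833822, plus strand: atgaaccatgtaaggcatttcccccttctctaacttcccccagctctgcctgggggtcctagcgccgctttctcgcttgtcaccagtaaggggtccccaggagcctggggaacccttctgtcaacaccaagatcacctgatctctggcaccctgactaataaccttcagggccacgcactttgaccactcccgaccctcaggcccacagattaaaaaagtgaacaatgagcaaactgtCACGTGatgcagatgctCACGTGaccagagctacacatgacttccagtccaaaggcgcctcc
Ctsl, chr13:64370471-64370770, minus strand: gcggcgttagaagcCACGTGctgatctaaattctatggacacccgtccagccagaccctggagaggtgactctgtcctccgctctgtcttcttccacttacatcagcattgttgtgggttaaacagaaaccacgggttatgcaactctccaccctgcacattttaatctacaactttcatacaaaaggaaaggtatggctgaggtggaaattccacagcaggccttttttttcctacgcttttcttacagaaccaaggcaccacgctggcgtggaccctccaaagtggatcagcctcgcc

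Ctsd held 2 copies of CACGTG, 245 and 98 bases before the start, and no GAGGAA. The Ctsa window shown held 2 copies of CACGTG, the first beginning 12 bases before the start and the second just after it, and the other Ctsa window held neither motif. Ctsl held 1 copy of CACGTG, 236 bases before the start. Ctss and Ctsc held none within these bases. Each of them held GAGGAA 2 times, in Ctss 164 bases before the start and, on the opposite strand, at the start itself, and in Ctsc 196 and 149 bases before it on the opposite strand. Ctsz held neither motif. In all, 3 of 6 genes held CACGTG, against 8.09% of all genes. GAGGAA was held by 2 of 6, which is near its share of 31.3% among all genes and so is no result about Ctss and Ctsc.

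Ctss and Ctsl are endopeptidases, which cut inside protein chains. Ctss, read by a single probe set, was at 8.66, 8.29, 8.91 and 9.65 at 4, 8, 13 and 21 months. The lowest value was at 8 months and the highest at 21 months, and the 2 differ by 1.36, or 2.57-fold. Of all genes above the filter, 0.354% had a larger difference in the same direction at 21 vs 8 months and 0.561% at 21 vs 4 months. Ctsl, an abundant lysosomal endopeptidase of most tissues, was at 11.56, 11.41, 11.60 and 11.66. The order of the ages was the same as for Ctss, but the range was 0.25, and 27.5% of all genes had a larger difference toward higher values at 21 vs 4 months. A dimmer Ctsl probe set, at 5.14, 4.79, 5.16 and 5.32, ordered the ages the same way over a range of 0.53.

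Ctsc, Ctsb, Ctsh and Ctsz remove amino acids from the ends of proteins, and of these Ctsc stood out by size. Its brightest probe set was at 10.02, 9.73, 10.07 and 10.67 at the 4 ages. The 4-month and 13-month values lay 0.05 apart, with 8 months below and 21 months above them. A second probe set of Ctsc, at 3.66, 3.47, 3.70 and 4.28, passed the filter through its 21-month value and was higher by 0.62 at 21 vs 4 months, beside 0.65 for the brightest. The remaining Ctsc probe set, at 2.88, 2.25, 2.64 and 3.03, lay below the filter. With the mean over all 3 probe sets Ctsc was higher by 0.47 at 21 vs 4 months, which is under 1.5-fold.

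Ctsb, which can act as an endopeptidase and as a carboxydipeptidase, has 5 probe sets. The brightest was at 11.10, 11.04, 11.22 and 11.36, and the next at 10.75, 10.72, 10.84 and 11.05. Both were lowest at 8 and highest at 21 months. The probe set at 6.83, 6.78, 6.85 and 7.41 differed by 0.58 at 21 vs 4 months, just under 1.5-fold, while that at 6.14, 6.10, 6.17 and 6.45 differed by 0.31. The dimmest, at 4.81, 4.60, 4.57 and 4.59, ran the other way, with -0.22 at 21 vs 4 months. So the Ctsb probe sets ranged from -0.22 to 0.58, and 4 of 5 gave higher values at 21 months.

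Ctsh, an aminopeptidase, was at 10.17, 10.17, 10.33 and 10.32, so the older pair of ages lay above the younger pair with no difference over 0.01 within either pair. Its other probe set, at 9.46, 9.53, 9.70 and 9.71, showed the same step between 8 and 13 months. Ctsz, a carboxypeptidase, was at 10.28, 10.28, 10.46 and 10.53, again with equal values at 4 and 8 months. The other Ctsz probe sets differed by 0.23 and 0.27 at 21 vs 4 months, beside 0.25 for the brightest, so its 3 probe sets agreed within 0.04.

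Ctsd, the main aspartic protease of lysosomes, was at 9.60, 9.60, 9.67 and 9.81, equal at 4 and 8 months and highest at 21 months. Ctsa, which also shields the lysosomal enzymes β-galactosidase and neuraminidase from degradation, was at 8.58, 8.47, 8.64 and 8.75. A dimmer Ctsa probe set, at 5.29, 5.63, 5.34 and 5.29, was highest at 8 months, and with the mean of both Ctsa probe sets the 8 vs 4 month difference turned from -0.11 to 0.12. Over all 18 cathepsin probe sets above the filter, 16 were higher at 21 than at 4 months, 1 was lower and 1 equal. Probe sets of 1 gene read the same pools, and no share over all probe sets was computed. So this count has no background to be judged by and adds nothing to the count over genes. The 16 include the second Ctsc probe set, which passed the filter only through its 21-month value and so adds nothing to the count. The plot of probe sets by age shows these values.

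**Figure D1:**
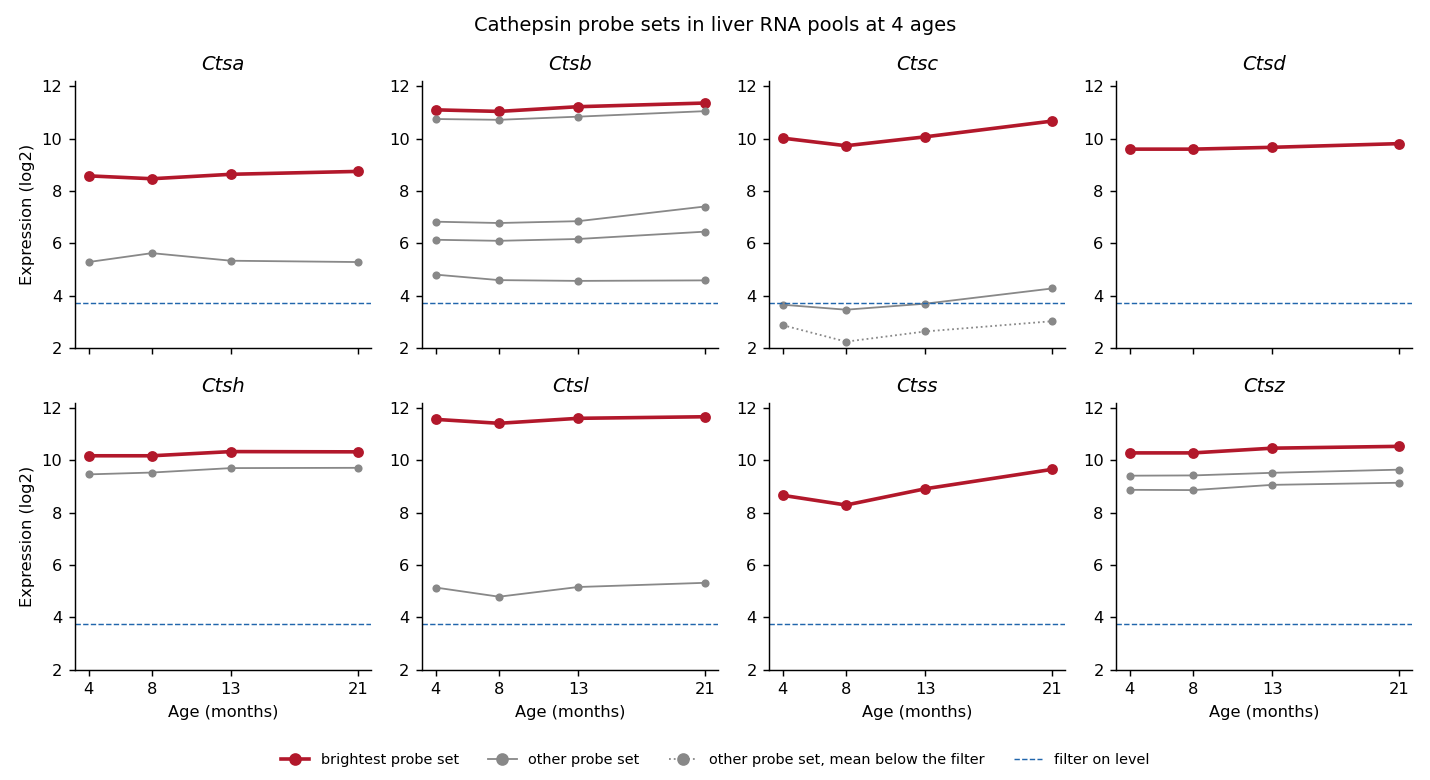
Expression of 19 cathepsin probe sets (log2, vertical axes) against age in months (horizontal axes), 1 panel per gene and 1 pooled array per point. Red marks the brightest probe set of a gene, grey the others, dots the Ctsc probe set whose mean lies below the filter, and the dashed line the filter of 3.74. Ctss and Ctsc dip at 8 months and are highest at 21 months, and the other brightest probe sets span at most 0.32.

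The steps between ages differed in direction. At 8 vs 4 months no cathepsin was higher, against 47.5% of all genes, and 5 were lower, against 48.7%. The other 3, Ctsd, Ctsh and Ctsz, had equal values. The median difference was -0.09, where the median of all genes was 0. Ctss at -0.37 and Ctsc at -0.29 were the lowest, followed by Ctsl at -0.15 and, at the brightest probe set, Ctsa at -0.11. None reached 1.5-fold in either direction, against 0.354% of all genes lower and 0.501% higher. Of all genes 1.94% had a larger difference toward lower values than Ctss and 3.92% a larger one than Ctsc. These differences rest on the 8-month array, on which some marker genes of other cells also stood apart. Ltf of neutrophil granules was higher there than at 4 months by 1.94, but it passed the filter only through its 8-month value. The bile duct keratin Krt19, below the filter on average, was higher by 1.51 and the smooth muscle actin Acta2 by 0.64. Their lists did not all go that way. Of 5 neutrophil markers above the filter 2 were higher and 3 lower. Of 8 stellate cell markers, which include Acta2, 4 were higher and 4 lower. Tat, a hepatocyte enzyme, was at -0.66. The macrophage gene Marco was at -1.46, Lyve1 of sinusoidal endothelium at -0.92 and Ighm of B cells at 0.95. The part of these marker genes in the 8-month cathepsin values was not tested.

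At 13 vs 8 months all 8 were higher at their brightest probe set, against 50.2% of all genes. The median was 0.18, where that of all genes was 0.01. With the mean over probe sets Ctsa was at -0.06 and the other 7 stayed higher. Ctss at 0.62 passed 1.5-fold, against 0.717% of all genes, and Ctsc at 0.34 did not. None was lower by that size, against 0.363%. The other 6 lay between 0.07 for Ctsd and 0.19 for Ctsl. This step and the one before share the 8-month array, which enters them with opposite signs. At 13 vs 4 months, which does not use the 8-month array, all 8 were again higher, against 51.1% of all genes. The differences ran from 0.04 for Ctsl to 0.25 for Ctss. There 0 passed 1.5-fold, against 0.838% of all genes higher and 0.458% lower.

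At 21 vs 13 months Ctss was higher by 0.74 and Ctsc by 0.60, and these 2 of 8 passed 1.5-fold, against 1.47% of all genes, and 0 of 8 were lower by that size, against 0.458%. Ctsc lay close to the threshold and was at 0.57 with quantile normalization, 0.58 with cyclic loess and 0.52 with the mean over probe sets, all under it. Ctsb and Ctsd were both higher by 0.14, Ctsa by 0.11 and Ctsz by 0.07. Ctsl at 0.06 and Ctsh at -0.01 differed least, and their signs turned in other settings, Ctsl to -0.0025 with quantile normalization and Ctsh to 0.01 with arrays centred on their medians. At 21 vs 8 months Ctss and Ctsc passed 1.5-fold, against 2.66% of all genes higher and 0.699% lower. The other 6 were higher by 0.15 to 0.32, and 51.7% of all genes were higher by any amount.

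Lowest at 8 and highest at 21 months were 5 of the 8 genes, Ctsa, Ctsb, Ctsc, Ctsl and Ctss, and so were 12.6% of all genes. In each of the 5 the 13-month value lay above that at 4 months. For 7 of 8 cathepsins, all but Ctsh, the 8-month value was not above that at 4 months and each later value was higher than the one before, a shape that 16.3% of all genes had. Without replicate arrays it cannot be said which neighbouring ages differ beyond the spread between mice. As a scale for the sizes, the robust SD of the differences over all genes was 0.148 at 21 vs 4 months. Ctss and Ctsc exceeded it several times over, Ctsh at 0.15 and Ctsa at 0.17 lay near it, and Ctsl at 0.10 lay below it.

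**Figure D2:**
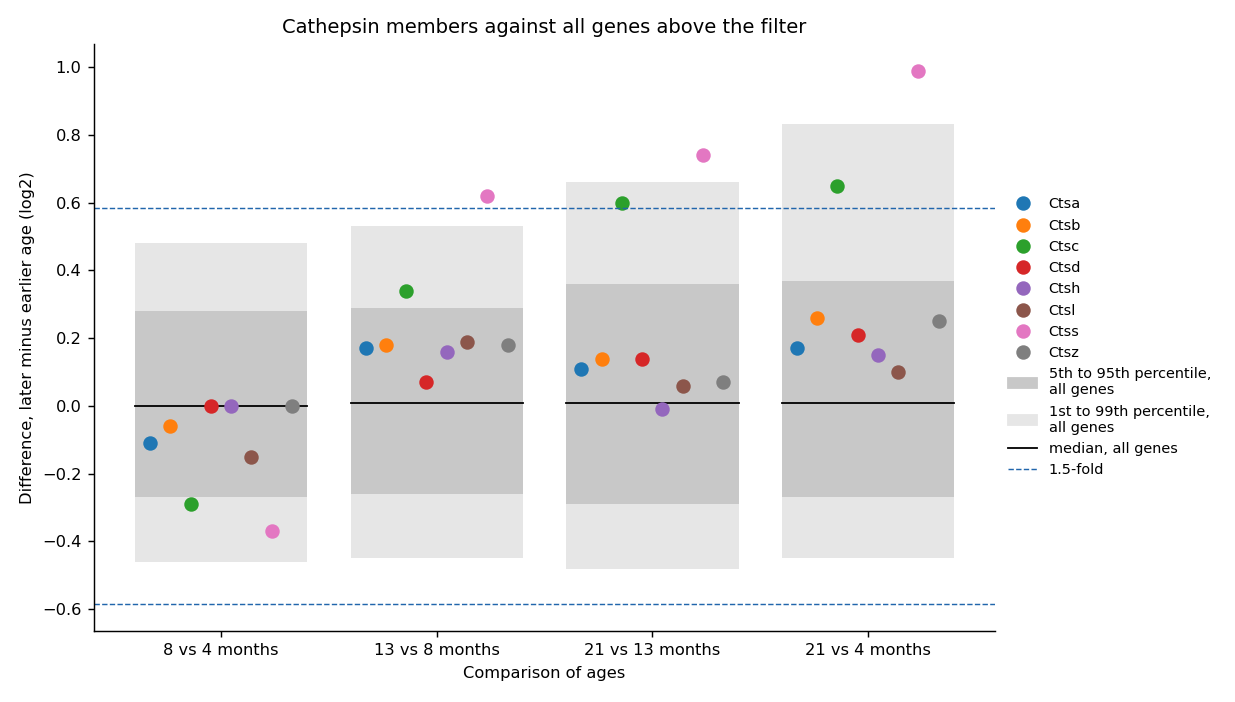
Difference between ages (log2, later minus earlier, vertical axis) of the 8 cathepsins in 4 comparisons of ages (horizontal axis), 1 point per gene. Dark and light grey bands span the 5th to 95th and the 1st to 99th percentile of all 11582 genes, black lines are their medians and dashed lines mark 1.5-fold. Ctss lies above the 99th percentile at 13 vs 8, 21 vs 13 and 21 vs 4 months, and 6 of the cathepsins stay inside the dark band in each comparison.

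Of 15 further cathepsin genes 6 passed the filter. At 21 vs 4 months 0 of these 6 were 1.5-fold different, against 2.1% of all genes higher and 0.423% lower. With shares this small, 0 of 6 is no contrast to Ctss and Ctsc. Ctse, an aspartic protease of immune cells and the stomach, was at 6.81, 6.62, 7.02 and 7.27, lowest at 8 and highest at 21 months. Ctso, a cysteine cathepsin, was at 9.17, 9.14, 9.42 and 9.54 in the same order. Ctsk, known for degrading collagen in bone, was at 4.03, 3.90, 3.90 and 3.81, a slight difference of -0.22 at 21 vs 4 months. Ctsf differed by 0.01, the neutrophil gene Ctsg by -0.02 and Ctsw, a gene of cytotoxic lymphocytes, by 0.09. The other 9, which include the placental cathepsins, were below the filter.

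Genes of cathepsin inhibitors and of proteins related to them were also measured. The counts of this and the following lists at 21 vs 4 months stand beside 51.4% of all genes higher, 45.2% lower and 2.1% at least 1.5-fold higher. All 7 genes of inhibitors and related proteins above the filter were higher, with a median of 0.21, and 1 of them passed 1.5-fold. This was Ctla2b, which resembles the inhibitory propeptide of cathepsin L, at 5.72, 5.33, 6.26 and 6.93. Its near copy Ctla2a, which the same probes may read in part, was at 4.70, 4.67, 4.83 and 5.24. Cst3, which encodes the secreted inhibitor cystatin C, was at 8.97, 8.97, 9.12 and 9.26, equal at 4 and 8 months as Ctsd and Ctsz were. Kng1, a plasma kininogen with cystatin domains, was higher by 0.21.

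Of 13 genes that sort or mature lysosomal enzymes 9 were higher and 4 lower at 21 vs 4 months, with a median of 0.10, and 1 passed 1.5-fold. Lgmn, the asparaginyl endopeptidase that trims several cathepsins to their mature form, was at 7.74, 7.60, 7.92 and 8.55. Its 21 vs 4 month difference of 0.81 lay between those of Ctsc and Ctss. Gga2, an adaptor for the mannose 6-phosphate receptors, was higher by 0.49, and Gnptg, a subunit of the enzyme that builds the mannose 6-phosphate tag, by 0.30. Psap, the precursor of the saposins, was also higher by 0.30.

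Most other lysosomal genes differed by less than Ctsc, with Dnase2a and Laptm5 nearest to or above it in size. Among 27 other hydrolases and lipid-binding proteins of the lysosome above the filter, 20 were higher and 7 lower at 21 vs 4 months, with a median of 0.08, beside 0.23 for the 8 cathepsins. None was 1.5-fold higher, and Dnase2a, the acid DNase that digests engulfed DNA, was 1.5-fold lower, at 8.36, 8.48, 8.38 and 7.76. The phospholipase gene Pla2g15 was higher by 0.53, the cholesterol carrier Npc2 by 0.38 and the acid ceramidase Asah1 by 0.36. Of 24 genes of the lysosomal membrane and its proton pump 15 were higher and 7 lower, with a median of 0.07. Laptm5, a lysosomal membrane protein of blood-derived cells, was the 1 member past 1.5-fold, at 6.36, 6.04, 6.41 and 7.34. Atp6v0d2, a proton pump subunit of macrophages and osteoclasts, was at 5.95, 5.44, 6.51 and 6.47, the amino acid transporter Slc38a9 differed by -0.27 and the pump subunit Atp6v0e by 0.23.

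The 7 regulators above the filter had a median of 0.25 at 21 vs 4 months, and 2 were at least 1.5-fold higher. Irf8, needed for macrophage and dendritic cell development, was at 4.99, 5.06, 5.24 and 5.96, and Spi1 at 5.10, 5.10, 5.11 and 5.85. Both were highest at 21 months, Irf8 was already higher by 0.25 at 13 vs 4 months, and unlike Ctss neither was lower at 8 than at 4 months. Irf1, an interferon-induced factor, was higher by 0.34 and Mitf by 0.25. Tfeb and Tfe3, named here because they bind the CACGTG element, differed by 0.11 and 0.05.

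Genes of class II antigen processing were measured because Ctss acts in this pathway. All 7 of these above the filter were higher at 21 than at 4 months, and 5 passed 1.5-fold. The median difference was 1.0, and 5 of 7 were lower at 8 than at 4 months, against 48.7% of all genes. Cd74, the invariant chain that Ctss cleaves, was at 8.19, 7.81, 8.49 and 9.27, and H2-Aa, a class II α chain, at 8.52, 8.13, 8.77 and 9.52. At each age both differed from their own 4-month value in the direction that Ctss did. H2-Ab1 and H2-Eb1, the class II β chains, were higher by 1.21 and 1.16 at 21 vs 4 months. The 2 genes under 1.5-fold were H2-DMa and H2-DMb2, chains of the peptide-loading chaperone, at 0.54 and 0.01.

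Likeness to Ctss was measured as the root mean square difference between 2 genes' values over the 4 ages, each centred on its own mean. The closest of all genes outside the 8 was H2-Aa, at 0.011. It was followed by Gbp8, an interferon-induced guanylate-binding protein, at 0.021. Gbp8 was near the filter, at 3.69, 3.35, 3.94 and 4.65, and passed it through its values at 13 and 21 months. Next came Itgb2, the β2 integrin chain of leukocytes, at 0.038, and Cd74 and the adhesion molecule Vcam1, both at 0.040. For Ctsc the closest were Marcks, an actin-binding membrane protein, at 0.018, and Ptprc, which encodes the leukocyte antigen CD45, at 0.031. Wfdc17, a secreted protein of activated macrophages, was also at 0.031, Ifit3, an interferon-induced gene, at 0.033, and the transcription factor Stat3 at 0.037. Ctss and Ctsc were 0.165 apart. Likeness over 4 pools is a description, and all points share the same arrays.

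Of the proteases that Ctsc activates, 4 of 8 passed the filter. Prtn3, which encodes proteinase 3 of neutrophil granules, was at 3.67, 3.74, 3.72 and 6.40 and passed only through its 21-month value. Gzmb, a granzyme of cytotoxic lymphocytes, was at 3.44, 3.64, 4.03 and 4.02. Like Prtn3, Gzmb passed the filter only through ages at which it was high, here the older pair of ages. Elane and Ctsg, which encode neutrophil elastase and cathepsin G, differed by -0.11 and -0.02 at 21 vs 4 months.

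Marker genes of liver cell types were set beside these results. All 18 markers of macrophages and Kupffer cells, the resident macrophages of the liver, were above the filter. Their median difference at 21 vs 4 months was 0.72, 17 of 18 were higher, against 51.4% of all genes, and 11 passed 1.5-fold, against 2.1%. At 8 vs 4 months the median was -0.38 and 17 of 18 were lower, against 48.7% of all genes. At 13 vs 4 months 11 of 18 were higher, against 51.1% of all genes, and 7 were lower, against 45.5%. The summed level of the list on the linear scale was 3718, 2797, 3920 and 6209 at the 4 ages, the order that Ctss and Ctsc had. This order was not particular to macrophage genes. Ctsa, Ctsb and Ctsl had it too, as had the sum of the other lysosomal hydrolases, at 7746, 7563, 7903 and 8243. The 4 largest differences at 21 vs 4 months were those of Mpeg1, which encodes perforin-2, at 1.39, the Kupffer cell genes Cd5l and Timd4 at 1.03 and 0.98, and the Fc receptor gene Fcgr1 at 0.90. Other genes of the list differed less. Clec4f, Folr2 and Vsig4 were higher by 0.51, 0.55 and 0.58, all under 1.5-fold, and Cd163 was lower, at -0.34. At 21 vs 4 months the 2 cathepsins thus lay on either side of the macrophage median, Ctss at 0.99 and Ctsc at 0.65. The part of these cells in the cathepsin differences was not tested.

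Of 11 hepatocyte markers 4 were higher and 7 lower at 21 vs 4 months, with a median of -0.01 and a summed linear level of 66121, 63803, 65179 and 64670 at the 4 ages. Tat, an amino acid enzyme, was at -0.35 and Apob at -0.26, Asgr1 at 0.18 and Hnf4a at -0.14. All 11 lay at 10.35 or above at every age. The sum is led by probe sets such as those of Alb, at 13.49, 13.43, 13.49 and 13.48, which lie near the top of the arrays' range. The sum may thus say little about small differences in hepatocyte RNA. Whether bright probe sets understate differences was not tested, here or for Ctsb and Ctsl, which lay at 11.04 or above at every age. Markers of sinusoidal endothelium, cells that also take up and degrade plasma proteins, had a median of 0.06 with none of 8 past 1.5-fold, and Lyve1, a hyaluronan receptor of these cells, was at 6.81, 5.89, 6.36 and 6.66. Stab2 was at 0.13, Pecam1 at 0.16 and Stab1 at 0.10. Stellate cell markers had a median of 0.15 over 8 genes, led by Dcn with 0.44.

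**Figure D3:**
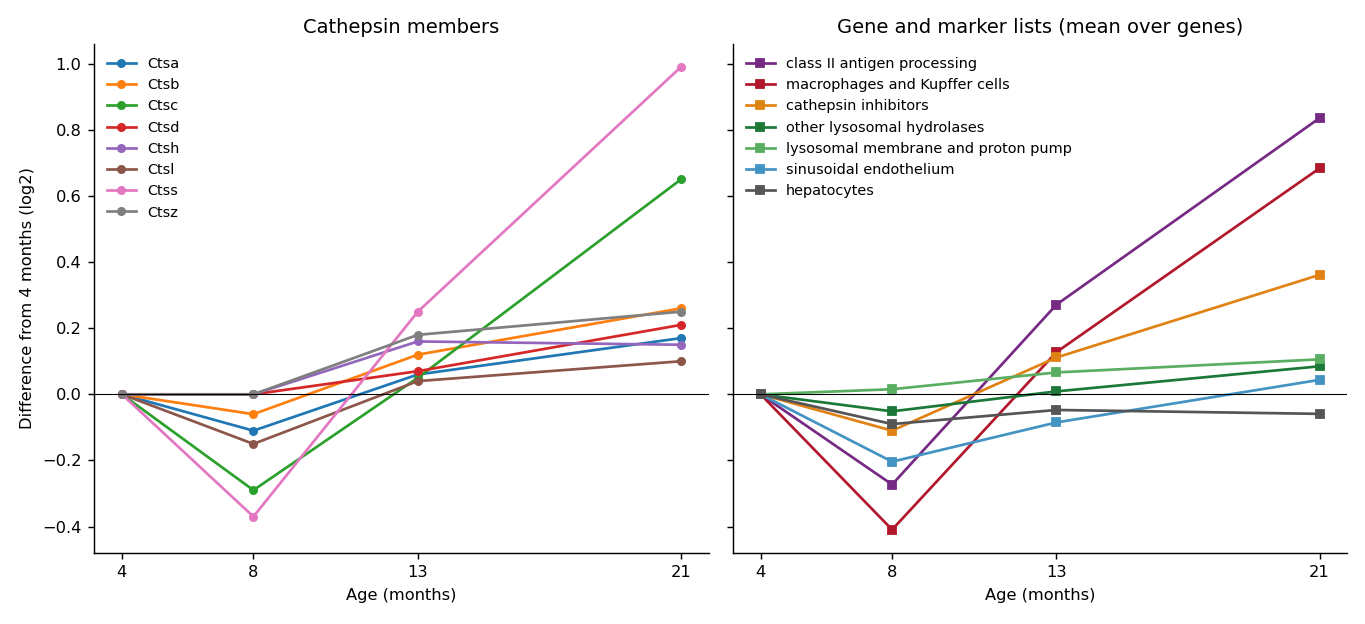
Difference from the 4-month array (log2, vertical axes) against age in months (horizontal axes). The left panel shows the brightest probe set of each cathepsin and the right panel the mean over the genes above the filter of 7 gene and marker lists. At 21 months Ctss, at 0.99, and Ctsc, at 0.65, lie farthest from their 4-month level, while the other cathepsins stay within 0.26 of their 4-month level.

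Of the markers of other leukocytes fewer passed the filter. Of the neutrophil markers 5 were above the filter, and 2, S100a8 and S100a9, were higher by 1.35 and 1.45 at 21 vs 4 months. Ngp was at 0.19 and Elane at -0.11, and Camp and Mpo were below the filter. Ltf was high at 8 months only, at 3.28, 5.22, 3.53 and 3.56, and passed the filter only through that value. Dendritic cell markers, with 4 above the filter, had a median of 0.09, with Itgax at 0.17 and Flt3 at 0.12. T and NK cell markers, also with 4, had a median of 0.04. Cd3d was at 0.19, Cd8a at 0.09, Cd4 at -0.01 and Cd3e at -0.09. Of 3 monocyte markers above the filter Plac8 was higher by 1.39, Fn1 by 0.18 and Ccr2 differed by -0.02. Fn1, at 11.18, 11.13, 11.06 and 11.36, lay at the level of the hepatocyte markers, so it may not read monocytes in whole liver. Of 5 B and plasma cell markers Ighm and Jchain were higher by 2.84 and 1.58 and the other 3 differed by at most 0.19. Of 7 bile duct markers 2 passed the filter, Epcam and Sox9, which were higher by 0.26 and 0.15, and below it Krt19 was at -0.49 and Krt7 at -0.05. Their part in the cathepsin differences was not tested.

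**Figure D4:**
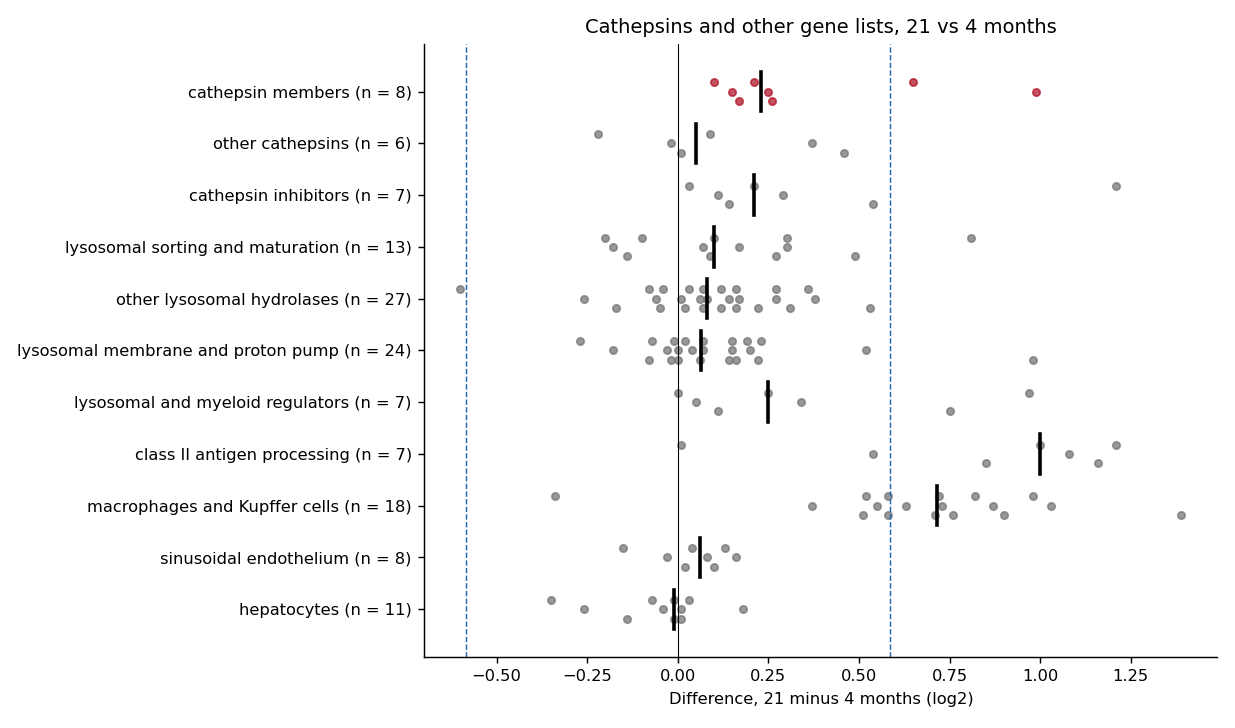
Difference at 21 minus 4 months (log2, horizontal axis) of the 8 cathepsins (red) and of genes above the filter in 10 further lists (grey), 1 point per gene, with the median of each list as a black bar and 1.5-fold as dashed lines. Ctss and Ctsc lie in a range that holds macrophage and class II genes and also genes of other lists, such as Laptm5 at 0.98 and Lgmn at 0.81. The other 6 cathepsins lie between 0.10 and 0.26.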

How the data were processed

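Liver RNA pools of 6 mice at 4, 8, 13 and 21 months were each measured on 1 array. The authors deposited 45101 log2 values per array, between 1.22 and 13.7, made with RMA per the submitters' processing notes. RMA corrects background, normalizes between arrays and summarises probes. The sources used here give neither its version nor the arrays normalized together. RMA draws arrays together and compresses differences of dim probe sets, and no detection calls were used.

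Gene symbols came from the platform annotation, in which 34945 had 1 symbol, 932 several, 9160 none or no entry, and 64 were controls. By gene identifier 34741 matched the GRCm38.p6 gene table. Groups follow the labelled age. Per gene the probe set with the highest mean was used, and genes with a mean of at least 3.74 were kept. Counts use a 1.5-fold difference. No test was run, since each age has 1 array, and the counting and likeness steps were tested on simulated data.

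The 8 genes, the lists and the alternatives were chosen with earlier results of these data known. Named genes are all 8 cathepsins with every probe set, further cathepsins above the filter, up to 4 members of each list with the largest difference at 21 vs 4 months, and the 5 genes most like each cathepsin that spans 1.5-fold. Camp, Mpo, Tfeb, Tfe3, H2-DMa, H2-DMb2, Clec4f, Folr2, Vsig4, Cd163, Marco, Krt7, Krt19 and Alb lie outside that rule and were named after their values were seen. Alternatives were the mean over probe sets, median centring, quantile normalization, cyclic loess, other thresholds and filters, the mean of a list, and the mean of the younger ages as baseline. The alternative normalizations used limma 3.58.1 in R 4.3.3, and all else Python 3.11.15 with pandas 2.3.3, numpy 2.4.6 and matplotlib 3.10.9.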

Additional observations from a re-analysis of the deposited data

How the results depend on the processing

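The median difference of the 8 cathepsins kept its sign in each of the 4 comparisons under all alternatives run. It ranged from 0.18 to 0.25 at 21 vs 4 months, from -0.10 to -0.04 at 8 vs 4 months, from 0.14 to 0.19 at 13 vs 8 months and from 0.08 to 0.15 at 21 vs 13 months. Counts past the fold were less stable, because Ctsc and Ctss lie near the thresholds. At 2-fold 0 cathepsins were higher at 21 vs 4, 13 vs 8 or 21 vs 13 months, and at the lowest threshold tried 2 were higher at 13 vs 8 and 1 was lower at 8 vs 4 months. With the mean over probe sets 1 was higher at 21 vs 4 and 1 at 21 vs 13 months, and with quantile normalization or cyclic loess 1 at 21 vs 13 months. Of 136 alternative values of single cathepsins 3 moved by more than the robust SD over all genes, those of Ctsc at 21 vs 4 and of Ctsa at 8 vs 4 and 13 vs 8 months, all with the mean over probe sets. Of 488 alternative list values 34 moved by more than it, most in short lists, and the regulators at 21 vs 13 months turned to -0.03 over the 3 genes left at the 75th percentile. No scaling moved the median of all genes by more than 0.03. No paired analysis was possible because each age has 1 array. There are no replicates to leave out, and dim probe sets, whose signal over background is unknown, limit the precision.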
